A study of Mus musculus with 24 samples.

Results

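The genes described here are those of the transforming growth factor beta (TGF-beta) and bone morphogenetic protein (BMP) pathway: the mouse protein-coding genes whose symbols name a BMP, TGF-beta, growth differentiation factor (Gdf) or inhibin beta ligand, a receptor of these ligands, a latent TGF-beta binding protein, a Smad, a Smurf ubiquitin ligase, an Id protein, or the antagonists Noggin (Nog), Gremlin, Bmper, Chordin and Follistatin. The rule takes 66 genes of the annotation, of which 48 were among the 38321 gene IDs listed in the count tables. The other 18, among them Tgfb3, Bmp6, Inhba, Smad4, Smad7, Acvrl1, Fst and Id2, are not analysed here. The rule goes by symbol, but it was set with earlier results of these data known. Of the members, 2 carry the BMP name without being ligands: Bmp1 is a secreted metalloproteinase and Bmp2k an intracellular kinase.

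RNA was measured by poly(A) RNA sequencing in 24 libraries, 4 for each of 3 groups in each of 2 tissues. In the OVXE2 group the ovaries were removed on day 0 and estradiol benzoate, 1 µg per day in 100 µL of corn oil, was injected under the skin from day 4. In the OVX group the ovaries were removed and vehicle was given. The Sham group had sham surgery and vehicle. All were wild-type female C57BL/6J mice aged 11 weeks at the start, and all carried a silk ligature around the second molars of the upper jaw from day 7 until they were killed on day 14, so every comparison is within ligature-induced periodontitis. The tissues were the dentoalveolar complex (DAC), which is alveolar bone with the teeth freed of soft tissue, and the gingiva around the upper molars. Libraries within a group are labelled as biological replicates, and nothing says whether both tissues came from the same animals.

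Ligands of this family are secreted as dimers, and TGF-beta is held in the matrix in a latent form by latent TGF-beta binding proteins until it is released. A ligand brings together type I and type II receptor kinases, which phosphorylate receptor Smads: Smad2 and Smad3 for TGF-beta and activin, and Smad1, Smad5 and Smad9 for BMP. These enter the nucleus with Smad4, while Smad6, Smad7 and the Smurfs restrain the signal, Noggin and Gremlin trap BMP outside the cell, and Id genes are classic early targets of BMP. BMP signalling is known for the formation of bone and teeth, and TGF-beta for matrix production and the coupling of bone resorption to formation.

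Total gene counts ran from 14771830 to 29248358 in the DAC libraries and from 18598422 to 26001342 in the gingiva libraries. The tissue labels held against marker genes: osteoblast and osteocyte markers (10 of 12 listed, none at 0) took 6.05 to 8.76% of counts in the DAC and 0.190 to 0.590% in the gingiva, and gingival epithelium markers (5 of 12 listed, none at 0) took 0.0916 to 0.856% in the DAC and 8.07 to 10.9% in the gingiva. Nasal gland markers (14 of 16 listed) took 14.1% of counts in DAC OVX replicate 1, against 0.286 to 2.62% in the other 11 DAC libraries. In bulk tissue, fewer cells of a type and less RNA per cell cannot be told apart.

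Per exon length, the 2 Id genes were the most abundant members in both tissues, in opposite order. Levels per length are RPKM (counts per kilobase of exon, scaled to library size over both tissues together) over the 12 libraries of a tissue, given as mean and SD. Id3 stood at 232 ± 50.7 RPKM in the DAC and 85.8 ± 12.3 in the gingiva, and Id1 at 90.1 ± 19.6 RPKM in the DAC and 196 ± 30.3 in the gingiva. Next in the DAC came Tgfb1 at 74.4 ± 8.63 RPKM, Bmp1 at 60.5 ± 8.11, the latent TGF-beta binding protein Ltbp4 at 41.1 ± 5.58 and the type II receptor of TGF-beta, Tgfbr2, at 37.7 ± 4.32. In the gingiva the order went on with Ltbp4 at 34.4 ± 2.85 RPKM, Bmp2k at 31.4 ± 2.77, Bmp7 at 26.7 ± 3.87 and the type I BMP receptor Bmpr1a at 25.1 ± 1.76. Ranges over libraries overlapped between neighbours in each of these orders, except between Id3 and Id1 in either tissue and between Id3 and Ltbp4 in the gingiva. At the low end, Gdf1 and Inhbc had no count in any library (the exons of Gdf1 overlap those of Cers1 on the same strand, where shared reads go to neither gene), and Bmp10 and Inhbe had none in the gingiva. Counts on the chosen strand were too few to test for Bmp10, Gdf1, Gdf2, Inhbc and Inhbe in any fit, for Gdf6 in the DAC, and for Bmp8b, Gdf9 and Gdf15 in the gingiva, which left 42 members tested in the DAC, 40 in the gingiva and 43 in the fit of both tissues.

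Most members differed in level between the 2 tissues. Of the 43 members tested in both, 29 were higher and 10 lower in the DAC than in the gingiva in OVXE2 mice, 27 higher and 9 lower in OVX mice, and 26 higher and 9 lower in Sham mice (edgeR quasi-likelihood test, Benjamini-Hochberg adjusted p under 0.05 over 14209 genes). Most genes of any kind differed between these tissues: 38% of all genes tested were called higher in the DAC and 34.1% lower in OVXE2 mice, 38.1% higher and 34.2% lower in OVX mice, and 39.7% higher and 35.4% lower in Sham mice. Calls higher in the DAC thus made up a larger share of the members than of all genes, and calls lower in the DAC a smaller one. The median log2 difference of the members, DAC minus gingiva, was 0.94 in OVXE2, 0.84 in OVX and 0.86 in Sham mice, beside medians over all genes of 0.03, 0.06 and 0.07 in the same order. Upper-quartile scaling moved the median of all genes to 0.18 in OVXE2, 0.21 in OVX and 0.27 in Sham mice. It moved the median of the members to 1.09, 0.99 and 1.06 in the same order, and left between 29 and 30 members higher and between 9 and 10 lower. In all 3 groups alike, 24 members were higher in the DAC and 9 higher in the gingiva, a count that was not made over all genes. For 22 of the 43 all 12 DAC libraries lay above all 12 gingiva libraries and for 8 all lay below, where 25.8% and 23.1% of all genes did so. Gdf9 and Gdf15, below the filter in the gingiva alone, are among the 24 and the 22, and among the members called higher in each group. Gdf6, below the filter in the DAC alone, is among the 10 called lower in OVXE2 mice. These members entered the test through the tissue where they are high, so their calls are no independent support.

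**Figure D1:**
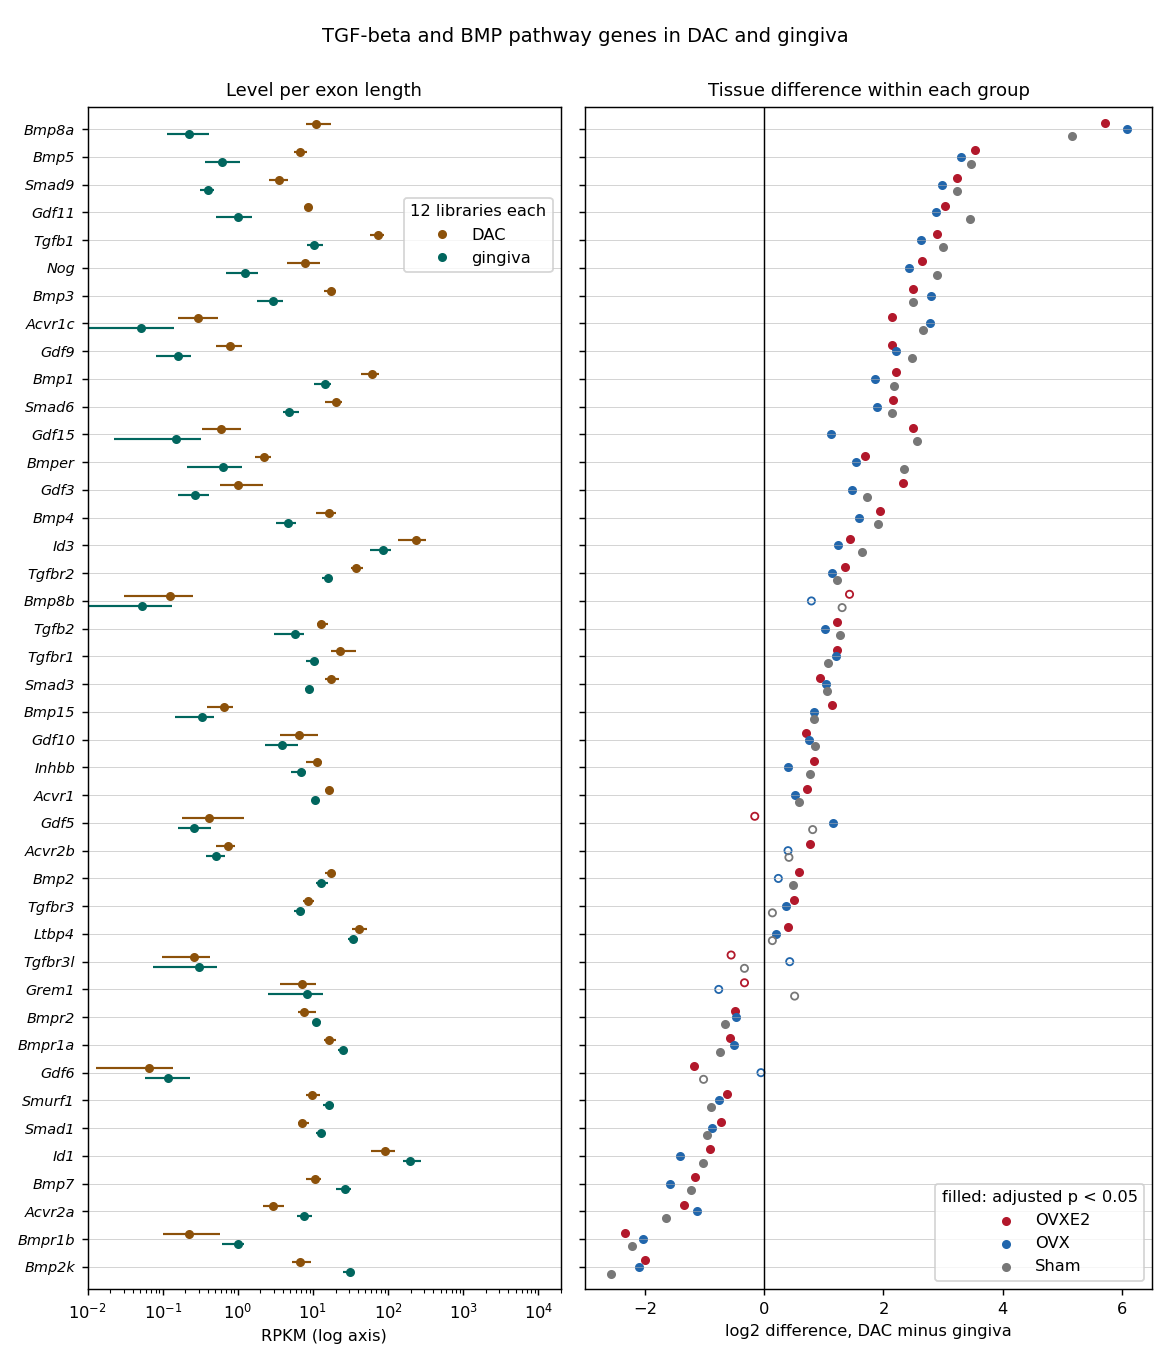
Left, level of members tested in both tissues in RPKM on a log axis (points are means over 12 libraries, lines the lowest to highest library, cut at the left edge of the axis). Right, log2 difference DAC minus gingiva in OVXE2, OVX and Sham mice, filled where the adjusted p passed; Bmp8a stands at the top with a mean of 5.65 and Bmp2k at the bottom with −2.23.

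Among the ligands, both measured TGF-betas and most BMPs were higher in the DAC. Values here are CPM with all 24 libraries scaled together, as lowest, median and highest library. Bmp8a, a ligand known from spermatogenesis in the mouse, had 19.7, 23.5 and 41.6 CPM in the DAC, against 0.273, 0.438 and 1.00 CPM in the gingiva. It showed the widest gap of any member, with log2 differences of 5.16 to 6.08 over the 3 groups and a mean fold of 50.2. Tgfb1, the main TGF-beta of bone matrix, had 288, 383 and 440 CPM in the DAC, against 41.6, 52.7 and 68.8 CPM in the gingiva, with a mean fold of 7.16. Bmp5, known from ear and skeletal morphogenesis in the mouse, had 22.7, 26.3 and 33.3 CPM in the DAC, against 1.48, 2.30 and 4.35 CPM in the gingiva. Bmp3, a BMP family member known to restrain bone mass in mice, had 103, 132 and 150 CPM in the DAC, against 13.2, 20.9 and 29.9 CPM in the gingiva. For Bmp8a, Tgfb1, Bmp5 and Bmp3 the tissues did not overlap. Reads of Bmp5 share exons with an antisense gene on the other strand, and its count was higher on the chosen strand (8242 reads in the DAC) than in the authors' column for either strand (3279), in which reads on overlapping genes go to neither.

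The other BMP ligands were less far apart. Bmp4, a ligand of tooth and bone development, was higher in the DAC with log2 differences of 1.59 to 1.95, and Tgfb2 with 1.02 to 1.27. Bmp2, which can induce bone by itself, was higher in the DAC in OVXE2 mice by 0.59 ± 0.11 (SE) and in Sham mice by 0.49 ± 0.11, and in OVX mice its difference of 0.24 ± 0.11 did not pass in edgeR (adjusted p = 0.0657). That value passed under upper-quartile scaling (0.00294) and without gingiva OVX replicate 1 (0.0383), gingiva OVX replicate 3 (0.0395), DAC OVX replicate 1 (0.0330) or DAC OVX replicate 3 (0.0283). Bmp7 lay on the gingival side: it had 32.3, 41.6 and 51.9 CPM in the DAC, against 80.3, 106 and 130 CPM in the gingiva. Its log2 difference, DAC minus gingiva, was −1.16 ± 0.13 in OVXE2, −1.57 ± 0.14 in OVX and −1.23 ± 0.14 in Sham mice, and no library of one tissue reached the other's range. Bmp15, a ligand of the oocyte, lay at 1.18 to 2.62 CPM in the DAC, against 0.446 to 1.49 in the gingiva, which overlap. Bmp8b passed in none of the 3 groups.

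The Gdf and activin ligands were higher in the DAC or low in both tissues. Gdf11, a ligand that signals through activin receptors, had 30.4, 34.9 and 39.5 CPM in the DAC, against 2.06, 4.01 and 6.27 CPM in the gingiva, a mean fold of 8.68. Gdf3 and Gdf10 were also higher in the DAC in all 3 groups. So were Gdf9 and the stress-induced Gdf15, but both fell below the filter in the gingiva alone (86 and 72 reads over its 12 libraries) and so entered the test through the tissue where they are high, which makes their calls no independent support. Inhbb, the beta B subunit of activin and inhibin, was higher in the DAC by log2 differences of 0.40 to 0.83. The call of Gdf15 in OVX mice, 1.13 on the log2 scale, rested on few reads and was lost without gingiva OVX replicate 3 (adjusted p = 0.0508, edgeR), gingiva OVX replicate 4 (0.0577) or DAC OVX replicate 2 (0.0501). Gdf6, a ligand of joints and tendon, gave −1.18 ± 0.40 in OVXE2 mice, and its values in OVX mice (−0.05 ± 0.44) and Sham mice (−1.02 ± 0.47) did not pass. It was below the filter in the DAC alone (74 reads over 12 libraries) and entered through the gingiva, so its call in OVXE2 mice is no independent support. Gdf5, its close relative, was called in OVX mice alone, at 1.15 ± 0.45, with −0.16 ± 0.46 in OVXE2 and 0.81 ± 0.46 in Sham mice. Gdf5 too had few reads, 289 in the DAC and 162 in the gingiva over 12 libraries each. Its highest DAC library stood at 1.22 RPKM beside a median of 0.335. The exons of Gdf5 overlap those of Gm15557 on the other strand.

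Among the receptors, those of TGF-beta were higher in the DAC and most that bind BMP in the gingiva. Both TGF-beta receptors were higher in the DAC: Tgfbr2 had 266, 298 and 382 CPM in the DAC, against 107, 132 and 148 CPM in the gingiva, and its type I partner Tgfbr1 had 113, 145 and 241 CPM in the DAC, against 52.9, 69.6 and 74.9 CPM in the gingiva. The type I BMP receptors Bmpr1a and Bmpr1b and the type II receptors Bmpr2 and Acvr2a were higher in the gingiva in all 3 groups. Bmpr1b had 0.608, 1.24 and 3.46 CPM in the DAC, against 3.64, 6.20 and 7.28 CPM in the gingiva. Acvr2a, which binds activins and BMPs, had 12.4, 17.04 and 23.5 CPM in the DAC, against 34.5, 43.7 and 55.0 CPM in the gingiva. The gap of Bmpr1a was smaller, with 88.3, 104 and 130 CPM in the DAC, against 137, 160 and 176 CPM in the gingiva. None of these receptors' ranges overlapped, while that of Bmpr2 did: it had 112, 128 and 196 CPM in the DAC, against 180, 203 and 228 CPM in the gingiva. Of the other receptors, Acvr1, a type I receptor of BMPs, was higher in the DAC by 0.53 to 0.71 on the log2 scale and Acvr1c, the type I receptor of nodal and some activins and Gdfs, by 2.15 to 2.78, both in all 3 groups. Acvr2b passed in OVXE2 mice alone (0.77 ± 0.20), and the coreceptor Tgfbr3 in OVXE2 (0.49 ± 0.10) and OVX mice (0.37 ± 0.10).

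Inside the cell, members of 1 class again lay on opposite sides. Among the receptor Smads of the BMP branch, Smad9 had 14.1, 18.6 and 24.6 CPM in the DAC, against 1.66, 2.12 and 2.61 CPM in the gingiva, whereas Smad1 had 40.1, 42.7 and 55.6 CPM in the DAC, against 69.6, 80.5 and 84.6 CPM in the gingiva. Smad3, of the TGF-beta branch, was higher in the DAC with a mean fold of 2.02. Among the brakes, the inhibitory Smad6 had 46.8, 67.3 and 78.7 CPM in the DAC, against 12.6, 15.2 and 20.8 CPM in the gingiva, and the ubiquitin ligase Smurf1 had 50.8, 59.7 and 78.5 CPM in the DAC, against 86.6, 104 and 119 CPM in the gingiva. The Id targets parted in the same way. Id3 had 245, 407 and 568 CPM in the DAC, against 103, 157 and 198 CPM in the gingiva, and Id1 had 68.3, 99.9 and 144 CPM in the DAC, against 183, 218 and 317 CPM in the gingiva. Id3 differed by 1.44 ± 0.20 in OVXE2, 1.24 ± 0.20 in OVX and 1.65 ± 0.20 in Sham mice, and Id1 by −0.92 ± 0.18, −1.42 ± 0.18 and −1.02 ± 0.18 in the same groups. For Smad9, Smad1, Smad6, Smurf1, Id3 and Id1 the libraries of the tissues did not overlap.

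**Figure D2:**
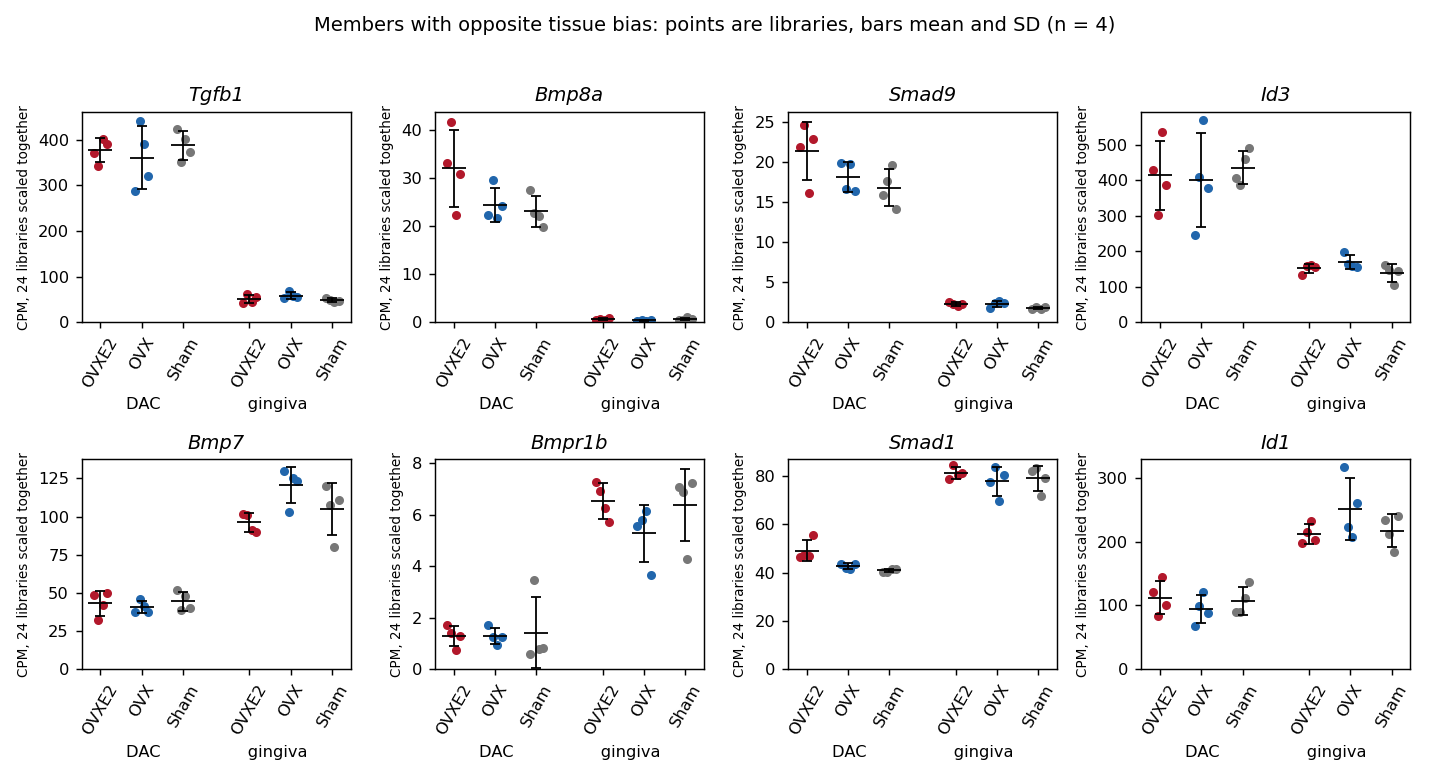
CPM of 8 members in each library, scaled over all 24 libraries, for DAC (left in each panel) and gingiva (right), with group means and SD of 4 libraries. Tgfb1, Bmp8a, Smad9 and Id3 are higher in every DAC library, and Bmp7, Bmpr1b, Smad1 and Id1 in every gingiva library.

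Of the extracellular antagonists, Noggin and Bmper were higher in the DAC and Grem1 passed the test in no group. Nog had 7.66, 12.8 and 20.7 CPM in the DAC, against 1.17, 2.04 and 3.14 CPM in the gingiva, a mean fold of 6.32. Grem1 had log2 differences of −0.33 ± 0.34 in OVXE2, −0.76 ± 0.34 in OVX and 0.51 ± 0.34 in Sham mice. The OVX value of Grem1 lay at the threshold (edgeR adjusted p = 0.0503): it passed with DESeq2 (0.0344), RLE scaling (0.0491), either-strand counts (0.0448) and a replicate block (0.0246). It also passed without gingiva Sham replicate 3, gingiva OVX replicate 1, gingiva OVXE2 replicate 2 or 3, DAC Sham replicate 1, DAC OVX replicate 1 or 4 or DAC OVXE2 replicate 1 or 4, at 0.0298 to 0.0489, and reached up to 0.152 without another library. Bmp1, which cleaves procollagen and chordin, was higher in the DAC at 391, 535 and 671 CPM, against 91.9, 123 and 155 CPM in the gingiva. Bmp2k was the member furthest on the gingival side, at 44.1, 52.4 and 78.9 CPM in the DAC, against 212, 272 and 300 CPM in the gingiva, where it was 4.67-fold higher. Its exons overlap those of Paqr3 on the other strand, and its tissue bias was also present in the either-strand counts, at 15809 reads in the DAC and 62600 in the gingiva.

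The promoters of Bmp8a and Smad9, among the members furthest on the DAC side, and of Bmp2k and Acvr2a, among those furthest on the gingival side, are shown as examples from both sides. In these 4 the RefSeq start coincides with the annotated gene start. Each line gives the 250 bases before the RefSeq start on build GRCm38.p6, 5′ to 3′ on the gene's strand, with GGCGCC, a GC-rich letter pattern known as a BMP Smad site, in capitals.
Bmp8a (chr4:123343253-123343502, minus strand): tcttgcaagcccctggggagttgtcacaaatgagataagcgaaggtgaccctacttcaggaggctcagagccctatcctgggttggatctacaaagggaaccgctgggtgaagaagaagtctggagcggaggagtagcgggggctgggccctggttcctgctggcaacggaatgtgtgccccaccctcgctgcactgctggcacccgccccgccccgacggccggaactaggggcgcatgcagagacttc
Smad9 (chr3:54755332-54755581, plus strand): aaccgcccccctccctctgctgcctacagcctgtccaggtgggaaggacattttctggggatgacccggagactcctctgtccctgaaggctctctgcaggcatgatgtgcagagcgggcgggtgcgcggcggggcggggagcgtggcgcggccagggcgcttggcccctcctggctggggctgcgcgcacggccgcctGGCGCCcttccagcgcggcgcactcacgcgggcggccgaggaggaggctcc
Bmp2k (chr5:96997439-96997688, plus strand): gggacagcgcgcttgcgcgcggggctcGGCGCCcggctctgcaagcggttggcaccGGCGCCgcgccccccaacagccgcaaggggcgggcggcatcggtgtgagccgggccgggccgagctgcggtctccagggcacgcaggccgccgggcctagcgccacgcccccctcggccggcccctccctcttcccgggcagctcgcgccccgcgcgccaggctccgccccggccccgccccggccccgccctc
Acvr2a (chr2:48813859-48814108, plus strand): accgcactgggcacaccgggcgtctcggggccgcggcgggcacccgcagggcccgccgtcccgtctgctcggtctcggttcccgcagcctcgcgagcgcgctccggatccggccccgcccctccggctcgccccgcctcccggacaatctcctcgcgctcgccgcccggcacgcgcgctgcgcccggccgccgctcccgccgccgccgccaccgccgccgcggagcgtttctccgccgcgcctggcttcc
The letters GGCGCC were present in Smad9, which was higher in the DAC, and at 2 places in Bmp2k, which was higher in the gingiva, and in neither Bmp8a nor Acvr2a. Of 48 members, 36 had a promoter in the reference table, 44 promoters in all, and 8 of these genes held GGCGCC in at least 1 promoter: Bmp2k, Bmpr1a, Bmpr2, Gdf1, Grem1, Ltbp4, Smad9 and Tgfbr1. Over all 32851 promoters of the table the share was 9.59%, and among the members' promoters it was 9 of 44. Base composition differed, with 62% G and C in the window of Bmp8a and 83.2% in that of Bmp2k. The Smad palindrome GTCTAGAC and the full palindrome of the estrogen response element were in no member's window and in 0.167% and 0.0639% of all promoters. All 3 patterns read the same on both strands and do not overlap each other.

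With estradiol, no member passed the test in the DAC. Between OVXE2 and OVX mice 2.13% of the 13617 genes tested passed, 92 higher and 198 lower (241 and 357 with DESeq2, 48 and 128 without DAC OVXE2 replicate 4), but 0 of the 42 members (edgeR; 0 with limma-voom and 1, Ltbp4, with DESeq2). At an unadjusted p under 0.05 there were 9 members, all higher in OVXE2, which is 21.4% of members beside 10% of all genes in either direction and 4.56% higher. Altogether 33 of the 42 had a positive log2 change, with a median of 0.15 beside a median of 0.02 over all genes, of which 55.1% were positive. For 3 members (Ltbp4, Smad1 and Acvr2b) all 4 OVXE2 values lay above all 4 OVX values, beside 3.22% of all genes. For 33 members the 95% interval lay within 2-fold in either direction, and for 25 within 1.5-fold.

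Ltbp4, which tethers latent TGF-beta to elastic fibres, had the smallest p. It had 305, 348, 299.7 and 313 CPM in the OVXE2 libraries, against 257, 277, 236 and 267 CPM in the OVX libraries and 266, 229, 285 and 252 CPM in the Sham libraries. All 4 OVXE2 values lay above all 8 others. The log2 change from OVX was 0.29 ± 0.08 (SE; edgeR adjusted p = 0.143, DESeq2 adjusted p = 0.0175) and from Sham 0.29 ± 0.08 (0.195 with edgeR and 0.0202 with DESeq2). Smad1 had 47.2, 48.5, 51.0 and 56.7 CPM in OVXE2, against 44.9, 43.0, 44.7 and 45.3 CPM in OVX and 42.6, 42.6, 44.6 and 44.2 CPM in Sham libraries. Its OVXE2 values were again all above the rest, with log2 changes of 0.19 ± 0.07 from OVX and 0.22 ± 0.07 from Sham, at edgeR adjusted p of 0.239 and 0.213.

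The BMP antagonist Noggin was among the 9. Nog had 16.9, 12.5, 22.5 and 18.3 CPM in OVXE2, against 7.86, 14.3, 13.5 and 10.7 CPM in OVX libraries, with overlap and a change of 0.60 ± 0.21. Among the others were Inhbb (0.35 ± 0.12), Tgfbr2 (0.21 ± 0.08), Bmp1 (0.31 ± 0.12), Bmp8a (0.37 ± 0.16) and Gdf15 (0.70 ± 0.31). The direct BMP target Id3 gave 434, 311, 584 and 394 CPM in OVXE2, against 252, 422, 611 and 393 CPM in OVX libraries, a change of 0.04 ± 0.25, and Id1 a change of 0.25 ± 0.22. Tgfb1 changed by 0.06 ± 0.13, Bmp2 by 0.11 ± 0.11, Bmp4 by 0.24 ± 0.13, Bmp7 by 0.08 ± 0.14, Smad6 by 0.12 ± 0.16 and Bmpr2 by 0.09 ± 0.15 (−0.059 without DAC OVXE2 replicate 2), none of which passed. Bmper changed by 0.03 ± 0.16, and by −0.18 without the 4 libraries richest in brain neuron markers.

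**Figure D3:**
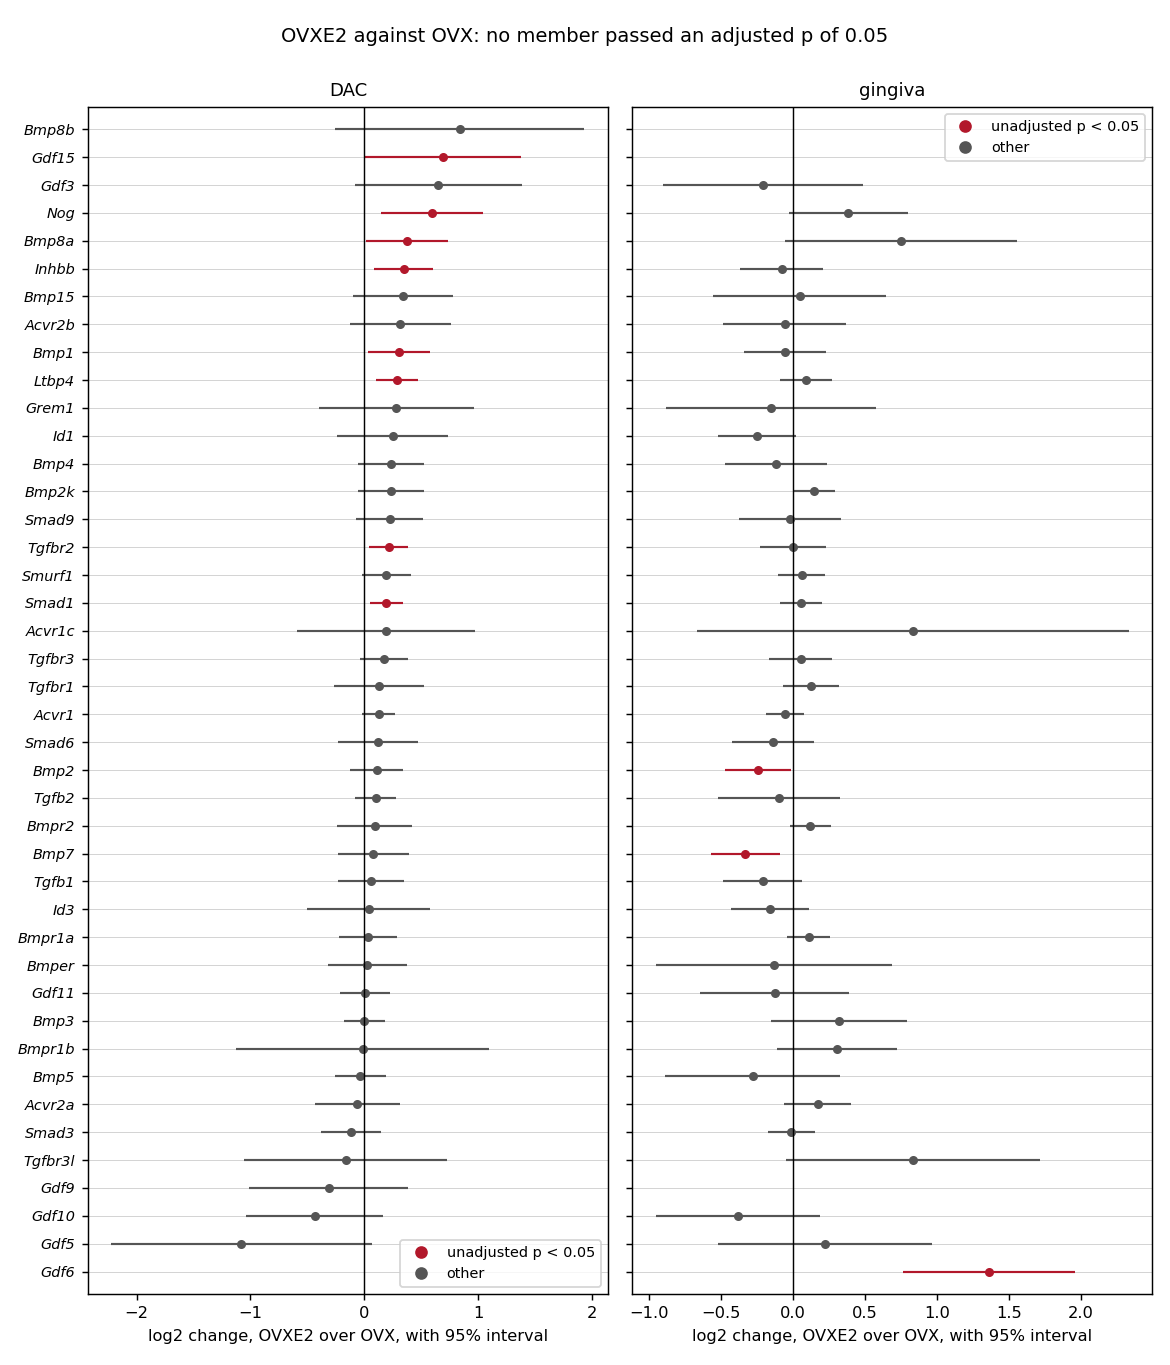
Log2 change of tested members between OVXE2 and OVX with 95% intervals, in the DAC and the gingiva, ordered by the DAC value, with members at an unadjusted p under 0.05 in red. In the DAC most points lie right of 0 and every red one does, while in the gingiva points lie on both sides and red ones too. The x axes of the panels differ in range.

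Against Sham mice, in a comparison that shares the OVXE2 libraries with the one above, no member of the DAC passed either. None of the 42 passed in edgeR, where 1.05% of all genes did, and 3 passed with DESeq2: Ltbp4, Smad1 (adjusted p = 0.0438) and Bmp2k (0.0444). Again 9 members had an unadjusted p under 0.05, all higher in OVXE2 mice, beside 8.77% of all genes in either direction and 4.17% higher, and 31 of 42 were positive. For 7 members all 4 OVXE2 values lay above all 4 Sham values (Tgfb2, Bmp3, Bmp15, Ltbp4, Tgfbr2, Smad1 and Bmp2k), beside 2.63% of all genes. Bmp2k had 75.6, 80.9, 53.8 and 68.2 CPM in OVXE2, against 51.8, 53.6, 50.2 and 47.1 CPM in Sham libraries, a log2 change of 0.46 ± 0.13. Its edgeR adjusted p was 0.206 with all libraries and 0.0435 without DAC OVXE2 replicate 3, the lowest of the 4.

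Ovariectomy alone gave no call in the DAC. No gene of any kind passed between OVX and Sham mice in the DAC with edgeR (0% of 13617, with 3.21% at an unadjusted p under 0.05; DESeq2 called 8 higher and 2 lower), and 2 of 42 members had an unadjusted p under 0.05, with none called by DESeq2 or limma-voom. Bmp3 had 129, 151, 148 and 146 CPM in OVX, against 122, 108, 129 and 132 CPM in Sham libraries, a change of 0.22 ± 0.08 (edgeR adjusted p = 0.874). Inhbb had 35.3, 37.5, 48.6 and 50.7 CPM in OVX, against 54.4, 47.6, 48.9 and 55.5 CPM in Sham libraries, a change of −0.26 ± 0.12. Bmp2k, next by p, changed by 0.23 ± 0.13. The groups of all 3 overlap. Of the 42, 22 were positive and 20 negative, with a median of 0.01.

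Marker shares of several cell types differed between groups in the DAC. The 12 endothelial markers listed of 15, none at 0, took 0.149 to 0.169% of counts in OVXE2, against 0.104 to 0.132% in OVX and 0.127 to 0.138% in Sham libraries, without overlap, and the 5 smooth muscle and pericyte markers listed of 9, none at 0, took 0.0825 to 0.106% in OVXE2, 0.0640 to 0.0847% in OVX and 0.0660 to 0.0891% in Sham libraries. The smooth muscle and pericyte shares of OVXE2 overlapped those of both other groups. Osteoclast markers (8 of 9 listed, none at 0) took 1.01 to 1.14% in OVXE2, 0.554 to 0.931% in OVX and 0.889 to 1.09% in Sham libraries. OVXE2 did not overlap OVX in these but overlapped Sham, and the OVX low of 0.554% was DAC OVX replicate 1. Markers of B lymphopoiesis (7 of 12 listed, none at 0) went the other way, at 0.00447 to 0.00686% in OVXE2, 0.0175 to 0.0233% in OVX and 0.00929 to 0.0135% in Sham libraries. Immature neutrophil markers (10 of 11 listed, none at 0) took 0.124 to 0.172% in OVXE2, 0.315 to 0.447% in OVX and 0.210 to 0.464% in Sham libraries. Osteoblast and osteocyte shares overlapped between groups, at 7.02 to 8.76% in OVXE2, 6.05 to 8.28% in OVX and 6.33 to 7.20% in Sham libraries. Fibroblast shares overlapped too. Chondrocyte markers (6 of 9 listed, none at 0) took 0.00497 to 0.00646% in OVXE2, 0.00452 to 0.00622% in OVX and 0.00384 to 0.00484% in Sham libraries. In these OVXE2 lay above Sham and overlapped OVX. The part of these markers in the members' values was not tested. DAC OVX replicate 1, with 14.1% nasal gland counts, held the lowest Bmp4 (25.6 CPM), Nog and Id3 values of its tissue.

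Outside the members, 4 pathway genes passed between OVXE2 and OVX in the DAC. Of 40 other pathway genes tested there, from lists of latent TGF-beta activation, extracellular modulators, other ligands, nuclear partners and the responses to TGF-beta and BMP, 3 rose and 1 fell in OVXE2 against OVX mice, with edgeR. Of all 13617 genes 2.13% were called, 92 higher and 198 lower. Thrombospondin 1 (Thbs1), which can release TGF-beta from its latent complex, had 797, 1173, 785 and 993 CPM in OVXE2, against 592, 509, 508 and 664 CPM in OVX and 446, 458, 515 and 477 CPM in Sham libraries. Fibronectin (Fn1), a matrix protein and TGF-beta target on which latent complexes are laid down, had 1566, 2426, 2017 and 1769 CPM in OVXE2, against 1071, 1170, 1130 and 1387 CPM in OVX libraries. Both were above OVX in all 4 libraries, by log2 changes of 0.72 ± 0.14 (adjusted p = 0.0187) and 0.71 ± 0.13 (0.0163), and above Sham by 0.98 ± 0.14 (0.00675) and 0.67 ± 0.13 (0.0354). Fibrillin 1 (Fbn1), to which latent TGF-beta binding proteins attach, rose by 0.43 ± 0.10 (0.0456), with 282, 397, 366 and 345 CPM in OVXE2, against 251, 262, 237 and 278 CPM in OVX libraries. Chordin-like 1 (Chrdl1), a BMP antagonist, fell by 0.98 ± 0.19 (0.0208), to 11.8, 8.94, 13.7 and 11.9 CPM in OVXE2, against 24.8, 20.2, 19.5 and 26.7 CPM in OVX libraries, again without overlap. Neither Fbn1 nor Chrdl1 passed between OVXE2 and Sham mice.

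**Figure D4:**
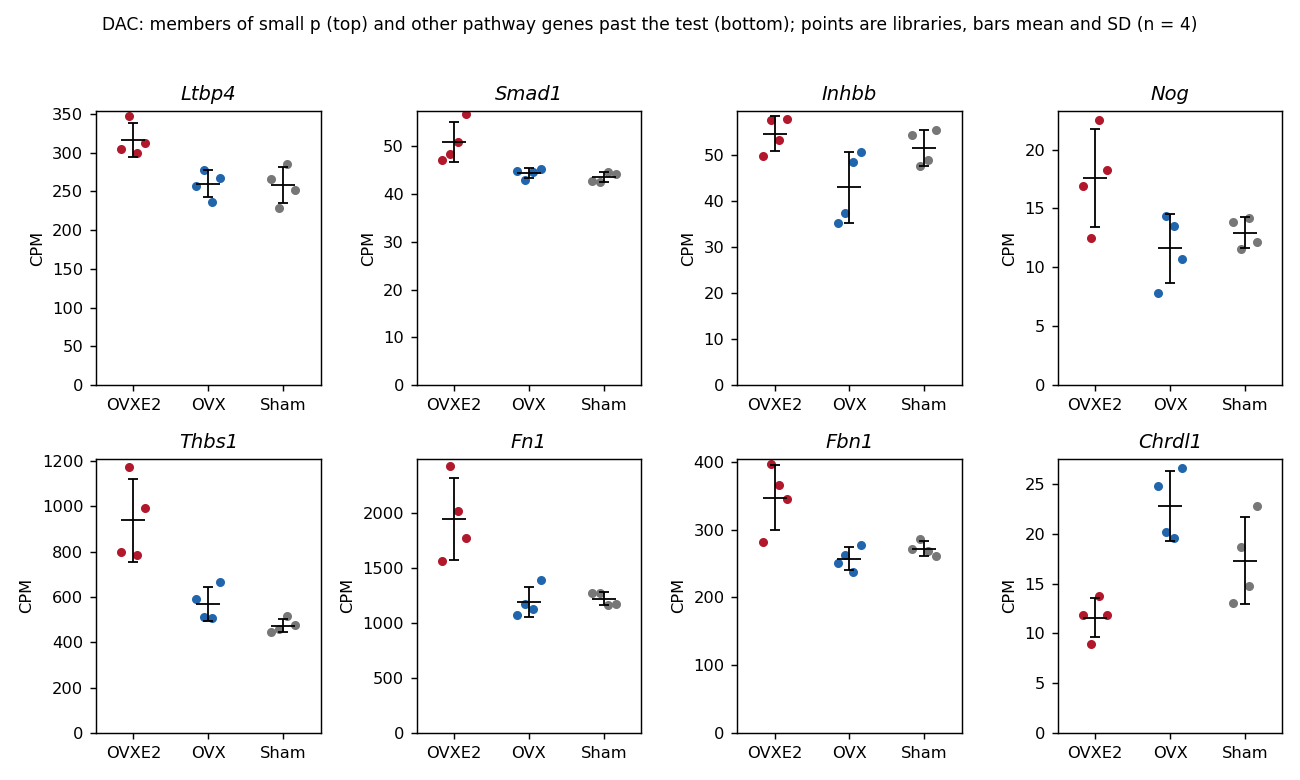
CPM in each DAC library, scaled within the tissue, for OVXE2, OVX and Sham mice, with group means and SD of 4 libraries. Top row, members of small p, of which Ltbp4 and Smad1 have all OVXE2 values above all OVX values; bottom row, the pathway genes outside the members that passed between OVXE2 and OVX, of which Chrdl1 is lower in OVXE2.

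Most of these calls were lost without single libraries, as adjusted p-values from edgeR show. Against OVX, the call of Fn1 was lost without DAC OVX replicate 3 (0.0655), that of Thbs1 without DAC OVX replicate 2 (0.0590), DAC OVX replicate 3 (0.0693) or DAC OVXE2 replicate 4 (0.0702), and that of Chrdl1 without DAC OVX replicate 1 (0.0584), DAC OVX replicate 4 (0.0695) or any OVXE2 library but replicate 3 (0.0597 to 0.0702). Fbn1 kept its call only without DAC OVXE2 replicate 1 and lost it without each of the other 11 libraries, at up to 0.153. Against Sham, Thbs1 kept its call without each library in turn (at most 0.0328) and lost it without the 4 libraries richest in brain neuron markers (0.146), and Fn1 lost it without 9 of the 12 libraries, being called only without DAC OVX replicate 1 or 4 or DAC OVXE2 replicate 1. Against OVX, directions held without each library in turn. Log2 changes ran from 0.60 to 0.80 for Thbs1 and from 0.59 to 0.80 for Fn1. They ran from 0.36 to 0.52 for Fbn1 and from −1.07 to −0.87 for Chrdl1.

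In the gingiva no member passed in any comparison, and with edgeR no gene of any kind did (0% of 12680 genes); DESeq2 called 48 genes higher and 44 lower in OVXE2 against OVX, 7 and 37 in OVX against Sham, and 6 and 2 in OVXE2 against Sham, none of them a member. Without gingiva OVX replicate 3, edgeR called 11 genes higher and 49 lower in OVXE2 against OVX, again no member. Between OVXE2 and OVX mice 3 of 40 members had an unadjusted p under 0.05, beside 13.9% of all genes, and none passed with DESeq2 or limma-voom. Gdf6 had 0.579, 0.684, 0.780 and 0.557 CPM in OVXE2, against 0.216, 0.265, 0.226 and 0.291 CPM in OVX and 0.279, 0.321, 0.373 and 0.193 CPM in Sham libraries. These values stand for 14 to 19 reads a library in OVXE2, 5 to 7 in OVX and 5 to 8 in Sham mice. The gene thus reached the filter through the group where it is high, so that neither the lack of overlap nor its p is independent support. The log2 change was 1.36 ± 0.28 against OVX (edgeR adjusted p = 0.200) and 1.16 ± 0.27 against Sham (0.63). Bmp7, the ligand on the gingival side, had 96.7, 96.7, 86.7 and 86.0 CPM in OVXE2, against 123, 99.4, 120 and 119 CPM in OVX libraries, all lower, a change of −0.33 ± 0.11 (0.303). Sham libraries, with 115, 103, 76.8 and 106 CPM of Bmp7, spanned both. Bmp2 changed by −0.24 ± 0.11, with overlap. Against Sham, OVXE2 mice had 3 members at an unadjusted p under 0.05 beside 7.41% of all genes, and 30 of 40 had a positive change (75%, beside 48.2% of all genes): Gdf6, Nog at 0.71 ± 0.19 and Grem1 at 0.76 ± 0.34.

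Between OVX and Sham mice 7 of 40 gingival members had an unadjusted p under 0.05, 4 higher and 3 lower, beside 12.1% of all genes (5.06% higher and 7% lower), with no call in edgeR, DESeq2 or limma-voom. Bmp2k had 242, 205, 233 and 252 CPM in OVX, against 266, 261, 287 and 273 CPM in Sham libraries, all lower in OVX, a log2 change of −0.22 ± 0.07 (edgeR adjusted p = 0.376). Grem1 had 27.6, 46.8, 40.1 and 47.5 CPM in OVX, against 25.5, 27.0, 9.92 and 23.7 CPM in Sham libraries, all higher in OVX, a change of 0.91 ± 0.34 (0.378). Gdf11 had 3.58, 6.04, 3.98 and 4.53 CPM in OVX, against 3.11, 4.30, 1.97 and 2.47 CPM in Sham libraries, with overlap. The others were Id3 (0.28 ± 0.12) and Smad9 (0.36 ± 0.17), higher in OVX, and Acvr2a (−0.25 ± 0.11) and Bmp8a (−0.84 ± 0.37, on 6 to 9 reads in OVX and 10 to 18 in Sham libraries), lower. Bmp8a reached the filter only with libraries outside OVX, so its p is no independent support. Gingiva Sham replicate 3, lowest for Grem1, Gdf11 and Bmp7, also had the lowest fibroblast marker share, and these markers (8 of 10 listed, none at 0) took 0.401 to 0.889% of counts in OVX and 0.332 to 0.612% in Sham libraries; their part was not tested.

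Genes of the pathway responses had mostly positive changes in that comparison, and none passed. In OVX against Sham gingiva all 10 TGF-beta response genes tested and 10 of the 11 BMP response genes had a positive log2 change. Of all genes 51.8% did. The medians were 0.40 and 0.30 beside 0.01 over all genes. Col1a1, of the TGF-beta response list, is also an osteoblast and osteocyte marker. Those markers took 0.281 to 0.590% of counts in OVX and 0.190 to 0.368% in Sham gingiva, with overlap. Fibroblast markers took 0.401 to 0.889% in OVX and 0.332 to 0.612% in Sham gingiva. The part of cell composition in the signs of these lists was not tested. At an unadjusted p under 0.05 there were 2 and 5 genes of these lists, beside 12.1% of all genes in either direction. Among them were Ccn2 (0.57 ± 0.23), a matricellular target of TGF-beta, Pmepa1 (0.35 ± 0.13), which restrains TGF-beta signalling, and the homeobox genes Msx1 (0.64 ± 0.23) and Dlx5 (0.30 ± 0.12), known targets of BMP. Of the BMP response list, Id1, Id3, Smad6, Smad9, Nog and Grem1 are members. In OVXE2 against OVX gingiva, a comparison that shares the OVX libraries, 8 of 10 and 8 of 11 were negative, with medians of −0.19 and −0.14. Of all genes 48.9% were positive there. In the DAC the medians of these 2 lists were 0.03 and 0.22 in OVXE2 against OVX and −0.10 and −0.15 in OVX against Sham, with 1 call, Fn1, among them.

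**Figure D5:**
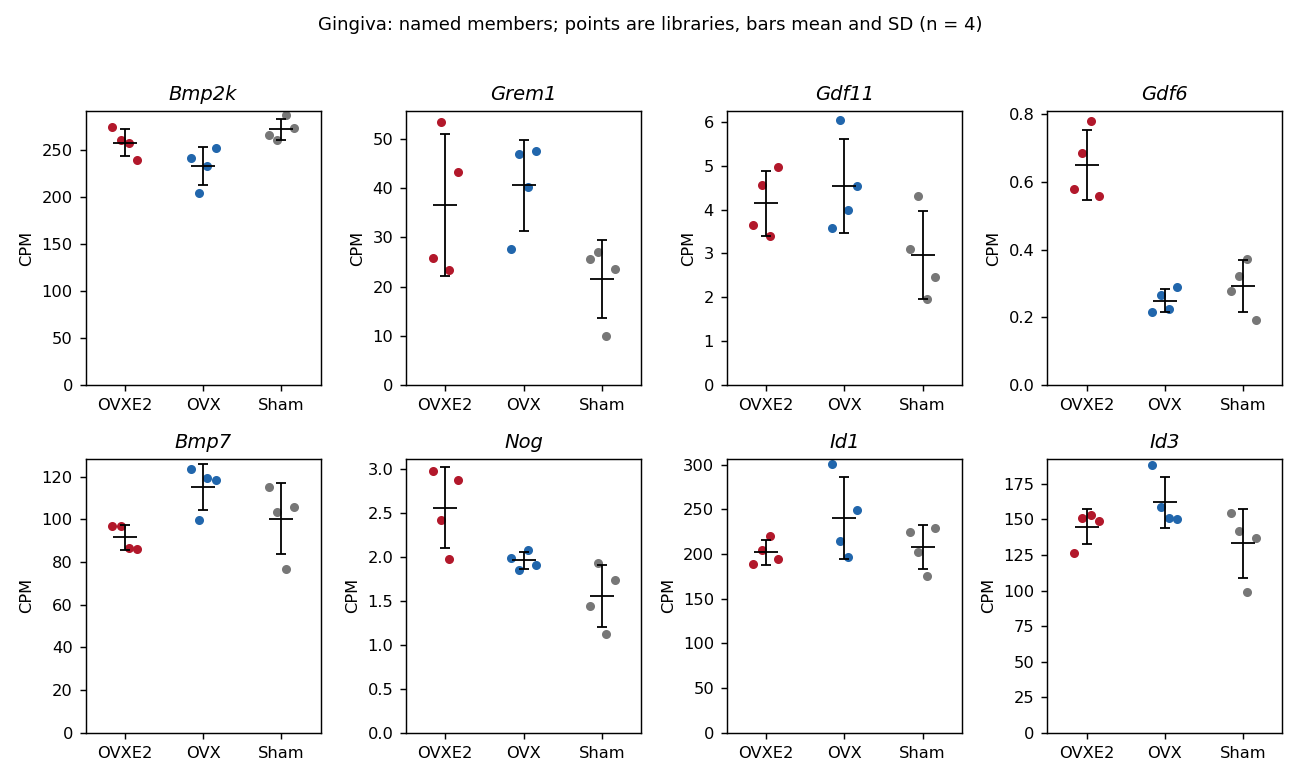
CPM in each gingiva library, scaled within the tissue, for OVXE2, OVX and Sham mice, with group means and SD of 4 libraries. Gdf6 is higher in all OVXE2 libraries and Bmp7 lower in OVXE2 than in OVX, Grem1 higher and Bmp2k lower in OVX than in Sham, and none of them passed the adjusted test.

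Whether a hormone effect differed between the tissues was tested directly. No member passed for the estradiol effect, where 0.19% of 14209 genes did, nor for the ovariectomy effect, where 0% did (edgeR; DESeq2 also called 0 members for both). At an unadjusted p under 0.05 there were 4 of 43 members for estradiol, all with the more positive change in the DAC (Inhbb at 0.43 ± 0.18, Gdf15, below the filter in the gingiva alone, at 1.37 ± 0.60, Bmp2 at 0.35 ± 0.16 and Bmp7 at 0.42 ± 0.19), beside 8.81% of all genes and 4.03% in that direction. For ovariectomy there were 6, led by Bmp2k (0.48 ± 0.17) and Acvr2a (0.53 ± 0.22) with the more positive and Grem1 (−1.27 ± 0.48) with the more negative change in the DAC, beside 8.53% of all genes.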

How the data were processed

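The submitters' processing notes name fastp, STAR, DESeq2 and the build GRCm38 (mm10). Tool versions and the annotation used are not given in the sources here. Libraries were poly(A), paired-end, from RNA with an integrity number over 7.0, per the labels' protocols. The deposited files hold raw gene counts by the authors in STAR's layout: either strand, and each strand alone. The column for the strand opposite to the read was used, since it held most reads, so antisense neighbours are mostly kept apart. GENCODE M21 gave symbols, exon lengths and coordinates for 38186 of 38321 IDs.

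Members, lists and tests were chosen with earlier results of these data known. Counts were filtered (filterByExpr), scaled by TMM and tested over all genes with edgeR 4.0.16 (robust quasi-likelihood, R 4.3.3), 12 libraries of a tissue in 1 fit (9 residual degrees of freedom; 13617 genes in the DAC and 12680 in the gingiva) and all 24 in 1 fit for tissue comparisons (18; 14209 genes). The biological coefficient of variation was 0.305, 0.164 and 0.248 in these fits. Calls are Benjamini-Hochberg adjusted p under 0.05. CPM are TMM-scaled within a tissue unless said otherwise. Errors are SE for log2 changes and SD for levels. P-values measure the spread between libraries only. Named within a tissue were members past the test or else the 3 of smallest p, a panel of ligands, receptors and targets, and every called gene of the other lists (up to 6 each); between tissues, the 10 members furthest to either side among those called in all 3 groups; and those highest and lowest per length in each role. Some further members were named after their values were seen. Promoters are from RefSeq, 36 of 48 members matched. Alternatives were DESeq2 1.42.0, limma-voom (limma 3.58.1), other scalings, no filter, either-strand counts, a replicate block and leaving out libraries. No pairing by replicate number was assumed, since the labels give none. Values of 1 member are not reported here, in text or figures, though counts over members include it.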

Additional observations from a re-analysis of the deposited data

Results flagged for a closer look

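In 192 groups of 4 libraries, each a named gene in 1 tissue and group, 12 had a highest or lowest library that stood far from the rest; chance alone gives about 1 in 20. Values are CPM within the tissue. In DAC OVXE2, Bmp2 was high in replicate 4 (71.7), Gdf9 high in replicate 3 (2.12) and Bmper high in replicate 2 (13.9). In DAC OVX, replicate 1 was low for Bmp4 (25.6) and Bmper (8.74), and Bmp5 was high in replicate 4 (34.6). In DAC Sham, replicate 2 was low for Bmp4 (36.6) and high for Bmpr1b (3.66), and Bmper was low in replicate 1 (8.61). In gingiva, Bmp4 was low in OVXE2 replicate 3 (6.77), Id3 low in OVXE2 replicate 1 (126.6) and Bmpr1b low in Sham replicate 3 (4.11).

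Bmp8b had more reads on the strand that was not counted, 2422 over the DAC libraries and 1834 over the gingiva libraries, than on the counted one, 148 and 56. Its exons overlap those of Ppie, which lies on the other strand.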

How the results depend on the processing

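Counts of members called within a tissue stayed at 0 under other scalings, limma-voom, no filter, either-strand counts and fits of 2 groups, with these exceptions. With DESeq2, 1 member was called higher in DAC OVXE2 against OVX and 3 in DAC OVXE2 against Sham. Leaving out each library in turn gave 0 to 1 for DAC OVXE2 against Sham. Tissue counts stayed within 1.5 times. When 1 library was left out, the members' median tissue difference was 0.89 to 0.99 in OVXE2 mice. In OVX mice it ran from 0.71 to 0.99 and in Sham mice from 0.77 to 1.07. With no filter it was 0.74 in OVXE2 mice, and with either-strand counts 0.97 in Sham mice. Values of single members in DAC OVXE2 against OVX that turned sign when 1 library was left out were Bmpr2 (−0.059 to 0.19), Id3 (−0.14 to 0.28), Tgfb1 (−0.042 to 0.16) and Bmper (−0.075 to 0.074), while Gdf15 ran from 0.44 to 0.85. Other values near 0, none of them called, turned sign in other comparisons. Without the 4 libraries richest in brain neuron markers (DAC Sham replicates 2 and 4, DAC OVX replicate 1 and DAC OVXE2 replicate 2, at 0.0211 to 0.0585% of counts), Bmper turned to −0.18 in DAC OVXE2 against OVX and to 0.21 in DAC OVX against Sham. The causes were not tested.

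Whether a replicate number marks a shared mouse was not settled. Correlations of same-numbered libraries of different groups ran from −0.35 to 0.35 in the DAC and from −0.53 to 0.29 in the gingiva. Libraries of different groups cannot show whether both tissues came from 1 mouse. Between the tissues of 1 group, same-numbered libraries ran from −0.32 (OVXE2 replicate 4) to 0.24 (Sham replicate 2), and low values do not exclude a shared mouse. With the replicate number as a block, 0 members were called in every comparison within a tissue and for both differences between tissues, and 29 higher and 10 lower between tissues in OVXE2, 26 and 10 in OVX, and 26 and 9 in Sham mice; Fn1 against Sham (adjusted p = 0.0782) and Fbn1 against OVX (0.0664) were no longer called. Without the 4 brain-marker libraries, the 4 other pathway genes named here lost their calls against OVX (edgeR): Thbs1 was at 0.62 (adjusted p = 0.149), Fn1 at 0.54 (0.145), Fbn1 at 0.35 (0.328) and Chrdl1 at −0.83 (0.0563). Without the nasal-gland-rich DAC OVX replicate 1 and the shallowest, DAC Sham replicate 2, these were 0.74 (0.0645), 0.66 (0.0712), 0.42 (0.144) and −0.93 (0.0794) in the same order. In fits of the 2 groups compared, Thbs1 (0.0863), Fn1 (0.0817) and Fbn1 (0.164) lost their calls against OVX, and Fn1 (0.123) against Sham. Fbn1 against OVX was also lost with RLE (0.0518) or upper-quartile scaling (0.0511), no filter (0.0776) and either-strand counts (0.0605), and Fn1 against Sham with either-strand counts (0.0523) and without the nasal and shallow (0.0908) or brain-marker libraries (0.318). Over all DAC genes, leaving out 1 library gave 48 to 89 calls higher and 112 to 201 lower in OVXE2 against OVX, and 21 to 65 higher and 39 to 99 lower against Sham. The total moved by over 1.5 times against OVX without DAC OVXE2 replicate 1 (66 and 112), DAC OVXE2 replicate 4 (48 and 128) or DAC OVX replicate 4 (58 and 128), without the brain-marker libraries (37 and 85), in the fit of 2 groups (49 and 140) and with DESeq2 (241 and 357). Against Sham it did so without any one Sham library or DAC OVXE2 replicates 1, 2 or 4, in the fit of 2 groups (29 and 35), without the brain-marker libraries (14 and 23) and with DESeq2 (144 and 196). In gingiva OVXE2 against OVX, edgeR called 2 genes with the block and 2 with no filter.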
